A study of Mus musculus with 4 samples.

Results

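Called cells in which an α chain of the T-cell receptor (TRA) was read without a β chain (TRB) made up 288 of the 13345 called cells of the series, or 2.16%. A called cell is a barcode that the deposited contig tables flag as a cell. A member of the set had at least 1 TRA contig and no TRB contig among the contigs flagged high-confidence, full-length and productive, and it is called a TRA-only cell here. It was set against 11035 paired cells, which had TRA and exactly 1 such TRB contig, and beside 1370 cells with TRB and no TRA. The marker that defines the set, a productive TRA, was present in every member by the rule. The tables hold receptor contigs and no other transcripts, so whether the members are T cells by other genes was not analysed here.

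The study read T-cell receptors cell by cell in pancreatic islets of mice on the NOD background, which develop autoimmune diabetes, with or without Tet2, whose product turns methylated cytosines of DNA into oxidised forms. There were 2 NOD and 2 Tet2KO NOD libraries, numbered set 1 and set 2 in each genotype, and each pooled the islets of 4 to 6 mice, so a pool is the replicate and a clone can span mice. The Tet2-/- allele came from B6 breeders and had been backcrossed to NOD females for over 14 generations. No Cre or promoter that would limit the deletion to T cells is named in the labels. The series' design text gives the age as 10 to 13 weeks, while the protocol counts those weeks from an event abbreviated BTM and names bone marrow donors among the NOD females, so the history of the mice was not settled here. That protocol also covers other assays and describes nuclei, and which of its steps the receptor libraries went through was not settled either. The p-values of the exact permutations below measure the spread between these 4 pools. Those of the segment tests rest largely on counts of TRA, as given there. Cells were not taken as replicates, except where segments were counted by cell.

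An αβ T-cell receptor is a pair of chains, each assembled in the thymus by joining a V to a J segment, with a D segment between them in the β chain. The β chain is rearranged first and paired with an invariant surrogate α chain before the α locus opens, so a mature αβ T cell normally holds a productive rearrangement of each. The joint of the segments encodes the third complementarity-determining region (CDR3), the part that differs most between clones, and identical α and β CDR3 nucleotides in several cells are the usual mark of a clone. α rearrangement can go on along the J cluster on both chromosomes, which is why many T cells carry a second TRA.

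The CDR3 sequences below are shown because they carry the main contrast among the members: an α chain that recurred in TRA-only cells either had a clear β partner in paired cells of the same library or had none. Each was read from the deposited contigs. Lower case marks the runs that match the V segment from the 5′ end and the J segment from the 3′ end in GRCm38, and capitals mark what lies between them, including the D segment in TRB. NOD alleles can differ from that genome, and a single differing base ends a run, so capitals are not a count of added bases.
TRAV7D-2/TRAJ23 of Tet2KO NOD 1: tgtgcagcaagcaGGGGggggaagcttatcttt
its partner TRBV19/TRBJ2-4: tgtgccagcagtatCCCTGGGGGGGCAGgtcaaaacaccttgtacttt
TRAV7N-4/TRAJ31 of Tet2KO NOD 1: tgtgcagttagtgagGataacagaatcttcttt
its partner TRBV31/TRBJ2-1: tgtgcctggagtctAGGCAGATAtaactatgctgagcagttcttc
TRAV7D-3/TRAJ18 of NOD 1: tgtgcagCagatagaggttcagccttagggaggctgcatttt
its partner TRBV13-1/TRBJ1-4: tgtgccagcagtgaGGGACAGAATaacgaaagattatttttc
TRAV10N/TRAJ6 of NOD 2: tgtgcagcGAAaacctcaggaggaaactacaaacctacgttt
its main partner TRBV5/TRBJ2-2: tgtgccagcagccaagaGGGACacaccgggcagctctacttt
TRAV9N-4/TRAJ5 of NOD 1, no partner: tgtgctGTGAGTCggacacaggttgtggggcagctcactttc
TRAV5N-4/TRAJ37 of Tet2KO NOD 2, no partner: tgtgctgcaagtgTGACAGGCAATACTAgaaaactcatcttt
TRAV14N-2/TRAJ21 of Tet2KO NOD 2, no partner: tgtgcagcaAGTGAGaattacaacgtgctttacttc
The α segments lie on the plus strand of chromosome 14 in GRCm38, the V segments named below upstream of the row of J segments. TRAV7D-2 is at chr14:52683964-52684472, TRAV9N-4 at chr14:53294341-53295030 and TRAV5N-4 at chr14:53312904-53313422. The J row runs from TRAJ58 at chr14:54157280-54157342 to TRAJ2 at chr14:54217836-54217901, with TRAJ23 at chr14:54196081-54196140 and TRAJ5 at chr14:54213777-54213838, ahead of the constant gene Trac at chr14:54220521-54224206. Near-identical copies of TRAV segments (the D and N names) cannot always be told apart, so the copy named for each TRA is uncertain.

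TRA-only cells were rare in every library and about equally so. They numbered 152 of 6835 called cells in NOD 1, 54 of 2889 in NOD 2, 48 of 1957 in Tet2KO NOD 1 and 34 of 1664 in Tet2KO NOD 2. As shares these were 2.22% (95% Wilson interval 1.90 to 2.60), 1.87% (1.44 to 2.43), 2.45% (1.85 to 3.24) and 2.04% (1.47 to 2.84). The intervals cover counting error only, and they overlapped across all 4 libraries. The mean share was 2.05% ± 0.251 (SD, n = 2) in NOD and 2.25% ± 0.290 (SD, n = 2) in Tet2KO NOD, a difference of 0.201 percentage points. An exact two-sided permutation over the 6 assignments of libraries to genotypes gave p = 0.667, where the smallest p possible was 0.333, so no genotype test of a single value could pass 0.05 in this design. Without Tet2KO NOD 1 the difference was -0.00323 points. The mirror class was larger, with 726, 233, 239 and 172 cells holding TRB and no TRA, or 4.31 to 5.06 such cells for each TRA-only cell.

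The α chain of TRA-only cells was read from fewer molecules than that of paired cells. The median number of UMIs (unique molecular identifiers, which count captured RNA molecules) of the leading TRA, the one with the most UMIs in a cell, was 4.50 in NOD 1, 4 in NOD 2, 4 in Tet2KO NOD 1 and 4.50 in Tet2KO NOD 2. Paired cells had a median of 6 in each library. The difference was -1.75 ± 0.289 UMIs (SD over libraries, n = 4), and members were lower in 4 of 4 libraries. An exact two-sided sign-flip permutation over the libraries gave p = 0.125, the smallest it can give. Among cells with exactly 1 TRA in both classes the difference was smaller, at -1.25 UMIs. The quartiles of the classes overlapped, at 2 to 3 and 6.25 to 7 UMIs in members and 3 to 4 and 9 to 11 in paired cells. The lower count was not particular to TRA-only cells. In cells with TRB and no TRA the median UMIs of the TRB were 7 and 9 in NOD 1 and NOD 2. They were 9 and 8 in Tet2KO NOD 1 and Tet2KO NOD 2. The TRB of paired cells had 11, 13, 10 and 11 in the same order.

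**Figure D1:**
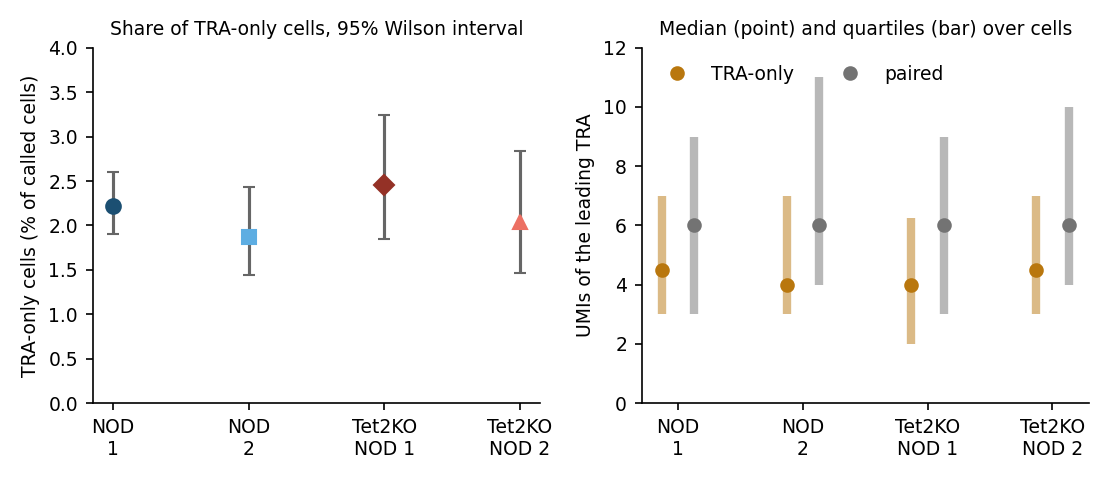
Left, the percent of called cells that were TRA-only in each library with its 95% Wilson interval; right, the median (point) and quartiles (bar) of the UMIs of the leading TRA over TRA-only and paired cells. The 4 shares lie between 1.87% and 2.45%, and each TRA-only median lies below the paired median of 6.

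Among cells with exactly 1 TRA, the TRA-only share was highest where the TRA had 2 to 4 UMIs. Over the 4 libraries it was 4.25% of cells with 2 UMIs, 4.58% with 3 to 4, 3.07% with 5 to 8, 1.71% with 9 to 16 and 0.428% with 17 or more. At 17 or more UMIs the set held 2 cells of NOD 1, 1 of NOD 2 and none of the Tet2KO NOD libraries. No member had a TRA of 1 UMI, although 588 other cells with 1 TRA did. Of paired cells, 4.74 to 7.61% had a leading TRA of 1 UMI. In cells with TRB and no TRA the lowest count of the leading TRB was likewise 2 UMIs in each library. Barcodes with TRA and no TRB that the tables do not flag as cells did include TRA of 1 UMI, in 34 of 108, and the part of the cell flag in the lowest bin was not tested.

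**Figure D2:**
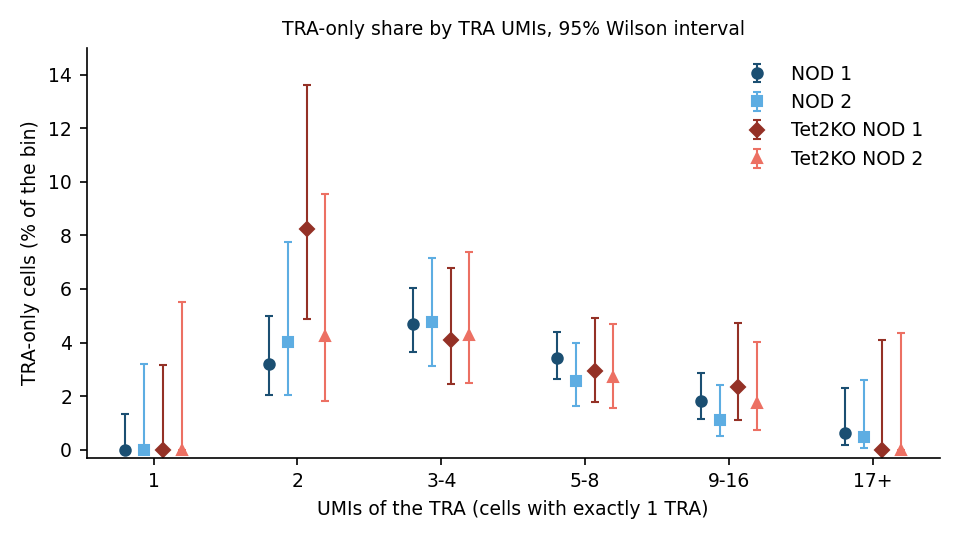
The percent of cells with exactly 1 TRA that were TRA-only, by the UMIs of that TRA, in each library with 95% Wilson intervals. The share is 0 at 1 UMI, 3.21% to 8.23% at 2 UMIs, and 0.639% or less at 17 and more in every library.

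Sequencing depth per molecule did not separate the classes. The median of reads per UMI of the leading TRA was 1141 and 1947 in members of NOD 1 and NOD 2 and 3492 and 1628 in those of Tet2KO NOD 1 and Tet2KO NOD 2; paired cells had 1157, 1621, 2723 and 1762. The members were higher in NOD 2 and Tet2KO NOD 1 and lower in the other two libraries. The mean difference of 236 ± 405 reads per UMI (SD over libraries, n = 4) was within the spread between libraries (exact sign-flip permutation, p = 0.500). Leaving out Tet2KO NOD 1 gave 58.7, and leaving out Tet2KO NOD 2 gave 360 reads per UMI.

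No TRA-only cell carried a second TRA. A count of 0 of 288 allows a share of up to 1.04%, while 1334 paired cells, or 12.1%, had 2 or more TRA, at 12.5% and 12.8% in the NOD and 10.6% and 10.8% in the Tet2KO NOD libraries. The difference of -11.7 ± 1.13 percentage points (SD over libraries, n = 4) had the same direction in 4 of 4 libraries (exact sign-flip permutation, p = 0.125, the smallest it can give). Barcodes not flagged as cells gave a different picture: 57, 19, 15 and 17 of them had TRA and no TRB, and 15, 4, 8 and 6 of these had 2 or more TRA. In the same barcodes 18, 4, 5 and 7 had a leading TRA of 1 UMI, which no flagged member had. The part of the cell flag in the absence of a second TRA among members, and so in the difference from paired cells and its p-value, was not tested.

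Few members shared their α chain with each other, and 99 of 288 shared it with a paired cell of their library. The 288 cells carried 257 distinct TRA (identical V, J and CDR3 nucleotides within a library), of which 243 were in a single member and 14 in 2 or more members, 45 cells in all. No TRA occurred in TRA-only cells of more than 1 library. The cells with the TRA of a paired cell of the same library were 52 of 152 in NOD 1, 18 of 54 in NOD 2, 22 of 48 in Tet2KO NOD 1 and 7 of 34 in Tet2KO NOD 2.

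As shares, 34.2% (Wilson interval 27.1 to 42.1), 33.3% (22.2 to 46.6), 45.8% (32.6 to 59.7) and 20.6% (10.3 to 36.8) of members had such a match. Matching was far above the sharing of α chains between libraries. With every reference reduced to 1392 paired cells, as many as Tet2KO NOD 2 has, 21.7%, 29.8%, 45.0% and 20.6% of members matched their own library and 1.50%, 0.154%, 2.01% and 0.551% matched another one on average. The difference was 28.2 ± 10.8 percentage points (SD, n = 4), higher for the own library in 4 of 4 (exact sign-flip permutation, p = 0.125, the smallest it can give).

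Members matched less often than paired cells did among themselves. In paired cells, 46.9%, 42.7%, 55.3% and 41.7% shared their leading TRA with another paired cell of the library. The members' share differed by -12.7, -9.37, -9.47 and -21.1 percentage points, a mean of -13.2 ± 5.50 (SD, n = 4; exact sign-flip permutation, p = 0.125, the smallest it can give). In paired cells, matching was more frequent at 17 or more UMIs of the TRA than at 1 UMI in every library. In NOD 1 the share was 33.7% at 1 UMI and 71.4% at 17 or more. The rise was not steady in Tet2KO NOD 1, with 77.9% at 9 to 16 UMIs and 61.1% at 17 or more. Members showed no common rise. In NOD 1, 38.9% of them matched both at 2 UMIs and at 9 to 16. Between the same bins their share rose in NOD 2 and Tet2KO NOD 1 and fell in Tet2KO NOD 2. These bins held 5 to 18 members each. When paired cells were weighted to the TRA UMIs of the members, the differences were -8.70, -6.46, -5.90 and -19.2 points, a mean of -10.1. Counted by distinct TRA instead of by cell, the comparison turned, with a mean difference of 12.6 points in favour of members, because a clone of paired cells then counts once. Between genotypes the match at equal reference was 25.8% ± 5.73 (SD, n = 2) in NOD and 32.8% ± 17.2 (SD, n = 2) in Tet2KO NOD (exact permutation, p = 1.00). The difference of 6.98 points was -5.21 without Tet2KO NOD 1.

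**Figure D3:**
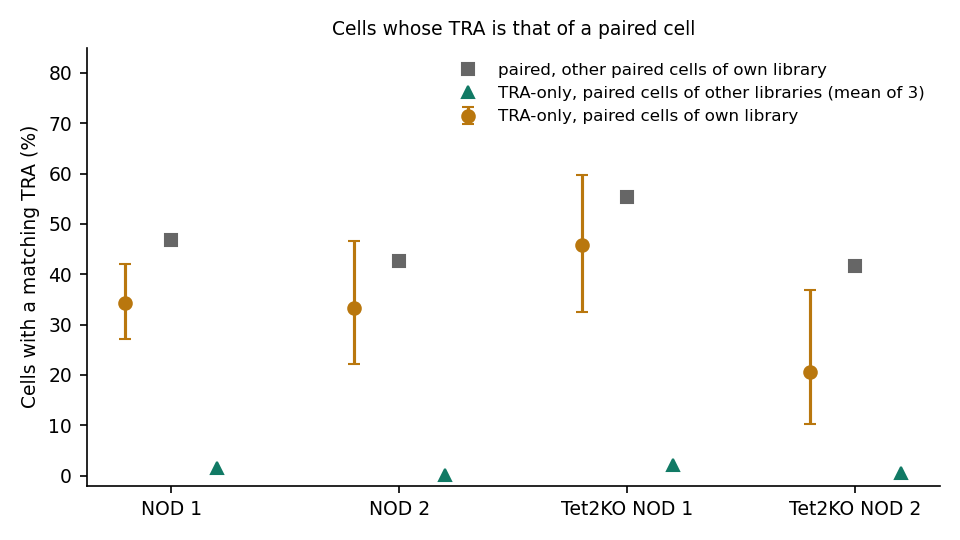
The percent of TRA-only cells whose TRA is that of a paired cell of the same library (circles, 95% Wilson interval), of paired cells whose TRA is that of another paired cell of the library (squares), and of TRA-only cells that match the paired cells of another library (triangles, mean of 3 libraries at 1392 reference cells). The circles lie below the squares in each library and above the triangles, which are at 2.01% or less.

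Most α chains that members shared with several paired cells came with 1 β chain. Of the 77 distinct matching TRA, 20 were in 1 paired cell, which has a single TRB by definition. Of the 57 in 2 or more paired cells, 45 were found with a single TRB, and 55 had a TRB that held the majority of those cells. The 12 TRA with more than 1 TRB were 10 of the 43 matching TRA of NOD 1 and 2 of the 12 of Tet2KO NOD 1. Of the matching members, 20 had the TRA of a clone with 1 paired cell, 47 of a clone with 2 to 9 and 32 of a clone with 10 or more. The members were 0.338%, 1.51% and 1.52% of all TRA-only and paired cells with such a TRA. Without Tet2KO NOD 1 the last value was 0.948%. The first value is held down by definition, since every paired cell with a TRA of its own counts there. A lone TRA-only cell has no paired cell, and the 189 members without a match are in none of these classes. The first value can thus not be compared with the others. In clones of 10 or more the share was 0.941%, 0.718%, 3.81% and 1.98% in NOD 1, NOD 2 and the Tet2KO NOD libraries. In clones of 2 to 9 it was 1.89%, 1.98%, 0.617% and 0.620%. The order of these sizes was opposite in the NOD and the Tet2KO NOD libraries. The shares of the larger clones rest on 11, 3, 16 and 2 members, those of the smaller on 28, 13, 3 and 3. The Wilson intervals of the sizes overlapped except in Tet2KO NOD 1. There TRAV7D-2/TRAJ23 and TRAV7N-4/TRAJ31 alone held 7 and 5 members. The order thus cannot be read as a difference between genotypes, and it was not tested. A TRA of 1 paired cell was that of 13 members in NOD 1, 2 in NOD 2, 3 in Tet2KO NOD 1 and 2 in Tet2KO NOD 2. In Tet2KO NOD 1, 16 of the 22 matching members were in clones of 10 or more paired cells.

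Counted by members, the β V segment of the partner was most often TRBV19, for 21 members with 10 distinct TRA: 11 cells in NOD 1, 2 in NOD 2, 8 in Tet2KO NOD 1 and 0 in Tet2KO NOD 2. Of the 8, 7 had the same TRA, TRAV7D-2/TRAJ23. TRBV5 followed with 16 members of 13 TRA, found in all 4 libraries, and led by distinct TRA. After it came TRBV13-1 with 12, TRBV2 with 8 and TRBV31 with 8 members. TRBV19 and TRBV5 were the partner of 21.6% and 16.5% of the members with a majority TRB, and the TRB of 9.08% and 9.54% of all paired cells. TRBV16, used by 8.47% of paired cells, was the partner segment of 1 member, and TRBV3, used by 4.79%, of 0. These counts rest on few clones, and they are given without a test.

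The TRA carried by the most members was TRAV7D-2/TRAJ23 of Tet2KO NOD 1, found in 7 cells. Its TRA had 3 to 14 UMIs in them, with a median of 11.0, against a median of 4 over all members of the library. A further 29 cells of the library had the same TRA with a TRB, and in 28 of them the TRB was TRBV19/TRBJ2-4 with the CDR3 printed above, at a median of 5 UMIs. TRA-only cells were 19.4% of the cells with this α chain, a value that describes a clone chosen for its number of members. In 2 of the 7 a TRB contig with that same CDR3 was present but had failed a flag. TRAV7N-4/TRAJ31 of the same library was in 5 members, at 2 to 6 UMIs, and in 22 cells with a TRB, all TRBV31/TRBJ2-1; 1 of the 5 had a failed contig with the partner's CDR3.

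In NOD 1, TRAV7D-3/TRAJ18 was in 4 members and in 8 cells with TRBV13-1/TRBJ1-4, and TRAV13-1/TRAJ32 and TRAV8D-1/TRAJ49 were in 3 members each and in 3 and 2 cells with a TRBV19 chain. Despite its TRAJ18, the first is not the invariant NKT chain, which pairs TRAJ18 with a TRAV11 segment. In NOD 2, TRAV10N/TRAJ6 was in 3 members and in 10 cells with a TRB, 8 of them TRBV5/TRBJ2-2. Clones with as many paired cells could also hold few members, as TRAV21-DV12/TRAJ22 of NOD 1 was in 2 members and 33 cells with a TRB and TRAV6-5/TRAJ44 of NOD 2 in 2 members and 20 cells with a TRB. In each of these last clones 1 of the 2 members had a failed TRB contig with the partner's CDR3. TRAV5-4/TRAJ53 of NOD 1, in 2 members and 17 cells with a TRB, had no TRB contig of any kind in its members.

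Of the 14 recurrent TRA, 5 were in no cell with a TRB, and they held 14 members. TRAV9N-4/TRAJ5 of NOD 1 was the largest, in 5 cells with 3 to 12 UMIs and a median of 6. None of the 5 had any contig with a TRB segment, not even a failed one. The deposited tables gave them 5 different clonotype numbers, but all 152 members of NOD 1 had 152 such numbers. TRAV5N-4/TRAJ37 of Tet2KO NOD 2 was in 3 cells with 6 to 9 UMIs, and all 3 had a contig of a TRBJ or TRBC segment without a V. TRAV13-1/TRAJ34 and TRAV21-DV12/TRAJ42 of NOD 1 and TRAV14N-2/TRAJ21 of Tet2KO NOD 2 were in 2 members each, with 1 of the 2 in each case holding some TRB contig. None of the 14 recurrent TRA was in a paired cell of another library.

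Contigs of a β chain that did not pass the flags, or that lacked a V, were present in 179 of 288 members (62.2%) and in 52.5% of paired cells. A TRB contig that failed a flag was found in 47 of 152 members of NOD 1, 16 of 54 of NOD 2, 12 of 48 of Tet2KO NOD 1 and 15 of 34 of Tet2KO NOD 2, or 30.9%, 29.6%, 25.0% and 44.1%. Over the series these were 90 members (31.2%), against 12.3% of paired cells, whose failed contigs came on top of a passing TRB; since the rule used TRB contigs, the classes were not tested against each other. A failed TRB that was not full-length was in 19.1% of members and 4.20% of paired cells, and one that was full-length in 14.2% and 8.21%. The latter failed the flag for confidence or for being productive, which were not told apart. A contig with a TRBJ or TRBC segment and no V was in 43.1% of members and 44.1% of paired cells. Neither kind was in 109 members (37.8%): 56 cells in NOD 1, 19 in NOD 2, 22 in Tet2KO NOD 1 and 12 in Tet2KO NOD 2. The share of members with a failed TRB contig was 30.3% ± 0.913 (SD, n = 2) in NOD and 34.6% ± 13.5 (SD, n = 2) in Tet2KO NOD (exact permutation, p = 1.00), and the difference of 4.28 points was -5.28 without Tet2KO NOD 2.

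**Figure D4:**
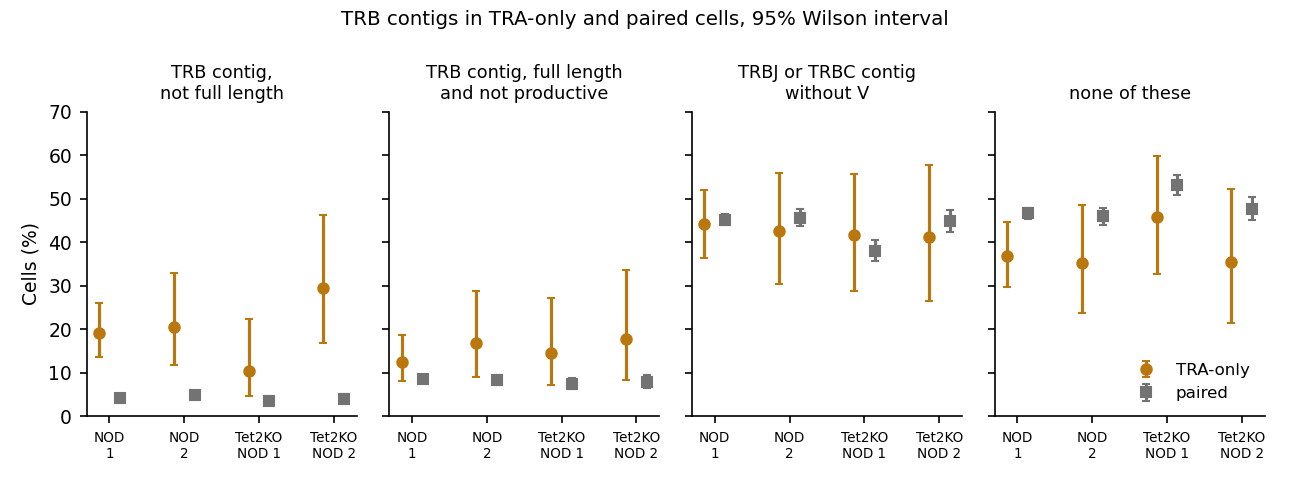
The percent of TRA-only (circles) and paired cells (squares) of each library with a TRB contig that is not full-length, with one that is full-length and failed another flag (titled not productive), with a TRBJ or TRBC contig without V, and with none of these. Bars are 95% Wilson intervals. Contigs that are not full-length are in 10.4% to 29.4% of TRA-only cells and 3.55% to 4.81% of paired cells, while contigs without V are about as frequent in both.

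Where a failed β contig could be read in a member with a matching α chain, it was mostly the β chain of that clone. The members held 100 failed TRB contigs with a median of 3 UMIs, and 78 of them had a CDR3. For this count a match was to any TRA of a cell of the library with 1 or more TRB, a wider rule than above. In members with a match, 25 of 34 of these CDR3 sequences were that of a TRB of the matching cells. They were 10 of 15 in NOD 1, 7 of 8 in NOD 2, 6 of 8 in Tet2KO NOD 1 and 2 of 3 in Tet2KO NOD 2. Of these 25 contigs, 17 were not full-length and 8 were full-length but failed another flag. In members without a match, 1 of 44 such CDR3 sequences was found in any called cell of the library. The V segments of the failed contigs were led by TRBV19 with 11, TRBV10 with 10, TRBV31 with 10 and TRBV5 with 9 of 100; TRBV10 was the V of 3.50% of the TRB of paired cells. TRBV23 gave 5 failed contigs in 3 libraries and was the V of 0.0634% of the TRB of paired cells. Among the 158 contigs with a TRB J segment and no V, TRBJ2-7 held 27.8% and TRBJ2-1 24.1%. These segments were in 21.2% and 11.3% of the TRB of paired cells. All these values for paired cells are of their passing TRB. The failed and V-less contigs of paired cells were not counted by segment, so these values do not compare like contigs.

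Use of α segments in members was spread over the locus and did not pass a test against paired cells in any segment. Each distinct TRA was counted once, and 92 segments (51 TRAV and 41 TRAJ) that reached a count of 10 in 2 or more of the 8 columns of library and class were tested with edgeR's quasi-likelihood test, with the library as a block. None passed a Benjamini-Hochberg adjusted p of 0.05 (percent called 0%), with a smallest adjusted p of 0.709 and 2 segments under an unadjusted p of 0.05; DESeq2 called 0 as well, with 0 under an unadjusted 0.05. The largest count of any segment among the members of a library was 13, so the counts behind each share are small. The common dispersion, which is the fitted spread between libraries beyond counting error, was 9.77e-05. It was the same in the interaction fit below. These p-values thus rest mainly on counting error and say little about the spread between pools.

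The TRAV segments used most by members were TRAV6N-7, TRAV5-4, TRAV16N, TRAV13-1 and TRAV4-3. Here and below counts run through NOD 1, NOD 2 and then the Tet2KO NOD libraries. TRAV6N-7 was in 11, 2, 4 and 3 distinct TRA of members, a mean share of 8.04% ± 2.93 (SD, n = 4) against 5.67% ± 0.606 in paired cells (edgeR adjusted p = 0.802). TRAV13-1 was in 12, 4, 0 and 2, or 5.76% ± 3.96 (SD, n = 4) against 4.26% ± 0.368, and TRAV16N in 13, 2, 0 and 3, or 5.77% ± 4.68 (SD, n = 4) against 5.31% ± 0.652. TRAV5-4 was at 5.91% ± 2.10 (SD, n = 4) against 6.55% ± 0.826. The SD over libraries was larger in members than in paired cells for each of these, and the members' shares rest on 31 to 137 distinct TRA a library. TRAV4-3 was the steadiest, at 4.38%, 3.92%, 5.26% and 3.23% of members and 2.48%, 2.78%, 3.27% and 2.48% of paired cells, higher in 4 of 4 libraries by 0.68 ± 0.49 on the log2 scale (SE; edgeR adjusted p = 0.753).

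Among TRAJ segments, TRAJ40, TRAJ23, TRAJ30, TRAJ42 and TRAJ49 had the highest mean share in members, between 4.65% for TRAJ49 and 5.66% for TRAJ40, against 4.53% and 4.57% in paired cells. TRAJ33, the segment of the MAIT α chain, was at 4.38%, 1.96%, 2.63% and 3.23% of members against 2.02%, 1.51%, 0.901% and 2.06% of paired cells, higher in 4 of 4 libraries by 0.99 ± 0.59 on the log2 scale (SE; edgeR adjusted p = 0.709). TRAJ24 was higher in 4 of 4 too, on 5 distinct TRA of members (adjusted p = 0.709). With TRAV4-3 these were the 3 segments of the 92 that were higher in every library, and 15 were lower in every one. Of the latter, TRAV6D-6 was in 3 distinct TRA of NOD 1 and in none of the other 3 libraries, where 2.99% to 3.83% of the TRA of paired cells had it (unadjusted p = 0.0253 by edgeR, adjusted 0.709). TRAV7-4 was in 1 distinct TRA of members, against 1.84% ± 0.465 (SD, n = 4) of paired cells. TRAV6-4, TRAJ16 and TRAV9-4 were in 0, against 1.13%, 0.825% and 0.765% of paired cells on average. At 38 distinct TRA, as in Tet2KO NOD 1, a count of 0 allows a share of up to 7.89%. In all, 7 of the 92 segments were in 0 TRA of members, at a median share of 0.765% in paired cells. A count of 0 lies on the lower side of any share, so 15 lower against 3 higher cannot be read apart from small counts. The numbers on each side were not tested.

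Between genotypes no segment of the members reached the count of 10 in 2 libraries, so the test was made without that filter, over 93 segments. None passed (percent called 0%; edgeR, smallest adjusted p = 0.573, 4 under an unadjusted p of 0.05; DESeq2 called 0, with 1 under an unadjusted 0.05). The shares of 34 segments (36.6%) did not overlap between the 2 NOD and the 2 Tet2KO NOD libraries. TRAJ45 had the smallest p, with 8 and 4 distinct TRA in NOD 1 and NOD 2 and 0 in both Tet2KO NOD libraries (unadjusted p = 0.00616 by edgeR, adjusted 0.573), where paired cells had it in 4.62% and 2.89% of distinct TRA. TRAJ49 was in 13, 3, 0 and 1, TRAV13-1 in 12, 4, 0 and 2, TRAJ15 in 1, 4, 0 and 0 and TRAV6-2 in 2, 3, 0 and 0 distinct TRA of members. In the other direction TRAJ30 was in 3, 1, 4 and 2, TRAJ37 in 2, 1, 2 and 2, TRAV7-3 in 2, 0, 2 and 2 and TRAV12N-1 in 0, 0, 1 and 1.

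TRAJ23 was in 3, 1, 2 and 4 distinct TRA, a mean of 2.08% in NOD and 9.08% in Tet2KO NOD members, with an edgeR adjusted p of 0.654. Counted by cells it was in 3 of 152, 1 of 54, 8 of 48 and 4 of 34 members. In that fit edgeR called it higher in Tet2KO NOD by 2.81 ± 0.67 on the log2 scale (SE from edgeR's F, adjusted p = 0.0109, 1 of 93 segments, percent called 1.08%). Of those 8 cells of Tet2KO NOD 1, 7 were the TRAV7D-2/TRAJ23 clone, so the count by cells weighs 1 clone 7 times. It takes cells of a clone as independent counts, so the call does not show a difference between pools. The test of whether members and paired cells differed in another way in each genotype (the interaction of class and genotype) called 0 of 92 segments (percent called 0%; edgeR, smallest adjusted p = 0.659, 3 under an unadjusted 0.05; DESeq2 called 0, with 1 under an unadjusted 0.05).

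The J segments of members lay at other places along the cluster in the Tet2KO NOD than in the NOD libraries, by a difference for which this design allows no p below 0.333. In the middle group, TRAJ39 to TRAJ21, members had 33.6% and 37.3% of distinct TRA in NOD 1 and NOD 2 and 57.9% and 54.8% in Tet2KO NOD 1 and Tet2KO NOD 2, where paired cells had 39.3%, 38.2%, 40.8% and 40.7%. The excess over paired cells was 19.0 percentage points larger in Tet2KO NOD, for which the exact permutation over 4 libraries gave p = 0.333. In TRAJ20 to TRAJ2, the group nearest the constant gene, members had 20.4%, 23.5%, 5.26% and 12.9% against 20.0%, 19.6%, 18.2% and 17.9% of paired cells, and the difference between genotypes was -11.1 points (exact permutation, p = 0.333). TRAJ58 to TRAJ40, the group joined first in development, held 46.0%, 39.2%, 36.8% and 32.3% of members' distinct TRA and 40.7% to 42.2% of those of paired cells. The middle group holds 22 and 17 distinct TRA of the Tet2KO NOD members. By cells the values of the middle group were 32.9%, 35.2%, 66.7% and 58.8%, and in NOD 2 the members then lay 0.316 points above paired cells.

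**Figure D5:**
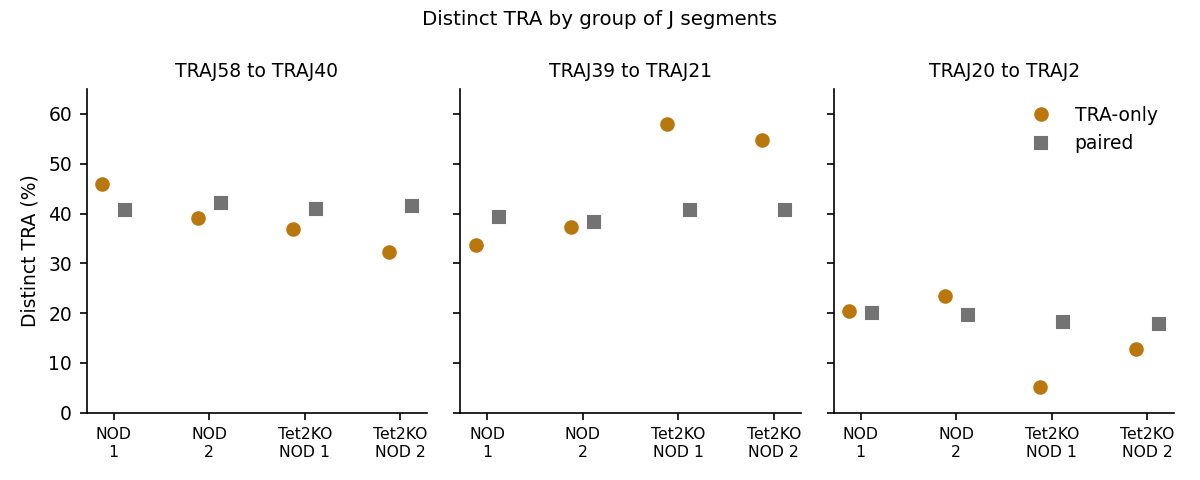
The percent of distinct TRA with a J segment in each of the 3 groups along the cluster, for TRA-only (circles) and paired cells (squares) of each library. In the middle group the TRA-only cells of the Tet2KO NOD libraries lie at 57.9% and 54.8%, and every other point lies at 40.8% or lower.

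Known α chains of unconventional T cells were rare in both classes. The invariant NKT type (a TRAV11 segment with TRAJ18) sees lipids on CD1d. It was in 1 member (0.347%), of Tet2KO NOD 1, and in 24 paired cells (0.217%). The MAIT type (TRAV1 with TRAJ33), which sees vitamin B metabolites on MR1, was in 0 of 288 members, which allows up to 1.04%, and in 5 paired cells (0.0453%). A TRAV16 segment with TRAJ42, a joint known from CD8 cells of NOD mice that see the islet protein IGRP, was in 2 members, both of NOD 1 (0.694% of all members), and in 296 paired cells (2.68%). The share was lower in members in 4 of 4 libraries. The counts of 0 in NOD 2, Tet2KO NOD 1 and Tet2KO NOD 2 allow up to 5.56%, 6.25% and 8.82%, above the 3.84%, 0.810% and 1.94% of paired cells, so they cannot show a lower share. By distinct TRA the shares were 0.778% of members and 0.516% of paired cells. A TRAV5 segment with TRAJ53 or TRAJ42, a joint described among insulin-reactive cells of NOD mice, was in 2 members of 1 clone and 1.37% of paired cells. TRAV segments that the δ locus can also use were in 6.23% of the distinct TRA of members and 6.10% of those of paired cells. A contig of the γ or δ chain, the mark of γδ T cells, was in 3 members, 2 of NOD 1 (1.32%) and 1 of NOD 2 (1.85%). Of paired cells, 1.71% had one in NOD 1 and 0.889% in NOD 2. The shares were 0.312% and 0.934% of paired cells in Tet2KO NOD 1 and Tet2KO NOD 2.

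The length of the α CDR3 was nearly the same in both classes. The mean over distinct TRA of members was 13.49 and 13.51 amino acids in the NOD libraries and 13.66 and 13.61 in the Tet2KO NOD libraries, and 13.63, 13.66, 13.67 and 13.62 in paired cells. The difference of -0.0776 ± 0.0805 residues (SD over libraries, n = 4) had the same direction in 4 of 4 libraries (exact sign-flip permutation, p = 0.125, the smallest it can give). The shortest CDR3 of a member had 10 residues and the longest 17.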

How the data were processed

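Per the file headers, each deposited row is an assembled contig with its read and UMI counts, chain, segments, CDR3 and flags. Cell Ranger 7.0.1 and the build GRCm38 (mm10) are named in the submitters' processing notes; which segment reference was used is not given in the sources. Contig length in bases was deposited by the authors and entered no test. Contigs held 85137263 to 220516119 reads a library. Barcodes called in more than 1 library numbered 4 to 30 per pair of libraries, and 2 of these were TRA-only in either library. Doublets were treated by leaving cells with over 1 TRB out of the paired cells.

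Segment counts were tested with edgeR 4.0.16 in R 4.3.3, with the number of distinct TRA as library size (alternatives: TMM, DESeq2 1.42.0); scripts were tested on simulated data. For genotype no segment passed the planned filter, and the fit without it is reported. The SE of a segment's log2 difference was the absolute difference divided by the square root of edgeR's F. Single values had exact permutation tests. Named segments were the 5 TRAV and 5 TRAJ most used, and in each comparison up to 5 higher and 5 lower of smallest p among those on one side in all libraries or without overlap. Members and lists were chosen with earlier results of these data known. Germline ends and coordinates came from GRCm38 with GENCODE annotation.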

Additional observations from a re-analysis of the deposited data

Results flagged for a closer look

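The share of distinct TRA with TRAJ39 to TRAJ21 differed from that of paired cells by -5.69 and -0.932 percentage points in NOD 1 and NOD 2 and by 17.1 and 14.2 points in Tet2KO NOD 1 and Tet2KO NOD 2, so each genotype lay on its own side. For TRAJ20 to TRAJ2 the differences were 0.444, 3.89, -13.0 and -4.95 points in the same order. The exact permutation of the difference between genotypes gave p = 0.333 for each group, the smallest possible, and the 3 groups sum to all J segments, so these are not independent results.

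Of the 10 segments used most by members, 3 lay on opposite sides of paired cells in the genotypes, as did 10 of the 92 segments tested (10.9%). TRAV5-4 differed by 0.981, 1.08, -2.28 and -2.35 points, TRAJ30 by -0.147, -0.275, 7.71 and 4.18 points, and TRAJ49 by 4.73, 1.05, -4.39 and -0.902 points, with the libraries in that order. The interaction of class and genotype gave an edgeR adjusted p of 0.950 for each of the 3.

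Barcodes that the tables do not flag as cells, which no comparison used, also held TRA without TRB: 57 in NOD 1, 19 in NOD 2, 15 in Tet2KO NOD 1 and 17 in Tet2KO NOD 2. Of these 108 barcodes, 31 had the TRA of a paired cell of the same library.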

How the results depend on the processing

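Single values were recomputed with another definition of members, of paired cells or of a match, and without each library in turn. Leaving out 1 library gave ranges of -0.00323 to 0.406 percentage points for the genotype difference in the share of TRA-only cells, -5.21 to 18.8 for that in matching and -5.28 to 13.8 for that in failed TRB contigs, so these 3 changed sign. The genotype difference in matching was -0.561 with all paired cells as reference. The lower matching of members than of paired cells turned to 12.6 points when each distinct TRA was counted once. The CDR3 length difference was -0.0315 residues (exact sign-flip permutation, p = 0.875) in members with no TRB segment of any kind, a definition added after seeing the data.

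No segment was called under any alternative except 1 in the genotype comparison by cells (TRAJ23, edgeR adjusted p = 0.0109), which takes cells of a clone as independent counts. The planned genotype fit and its alternatives with the filter were not run, since no segment passed it; all genotype fits beside the one without filter were added after seeing the data. The direction of segments not called changed for TRAV6N-7 (-0.02 with TMM factors on the log2 scale), TRAJ40 (-0.20 with TMM), TRAJ42 (-0.08 by cells), TRAV5-4 (-0.40 by cells, -0.21 with DESeq2, -0.46 with TMM, -0.38 without matching members), TRAV16N (-0.20 by cells, -0.02 with DESeq2, -0.12 with TMM), TRAJ23 (0.39 by cells) and TRAJ49 (-0.05 with TMM). Leaving out 1 library gave -0.20 to 0.12 for TRAV5-4, -0.38 to 0.69 for TRAV16N, -0.78 to 0.22 for TRAJ23 and -0.43 to 0.72 for TRAJ49. The cause of these changes was not tested.

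The set numbers shared by the genotypes were not shown to pair the libraries: the deviations of same-numbered libraries correlated at -0.239 over 93 segments of members. Taking the set as a replicate block, the genotype differences were 0.229 and 0.174 points within set 1 and set 2 for the share (mean 0.201), 23.2 and -9.26 for matching (mean 6.98) and -5.92 and 14.5 for failed TRB contigs (mean 4.28). The block called 0 segments, and so did a crossed pairing. Without the library block, 0 segments were called between members and paired cells.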
